A study of Mus musculus with 18 samples.

Results

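A set of 131 genes was above its wild-type level in mouse embryonic stem cells (mESCs) with a knockout (KO) of Nprl2 and below it in those with a KO of Tsc2. They were chosen from 24369 genes by their measured level in TPM, an estimate of transcript abundance from reads, corrected for transcript length and scaled to the same total in every library. A gene was kept if its wild-type mean was at least 3 TPM, its Nprl2 KO mean was at least 1.3 times and its Tsc2 KO mean at most 1/1.3 of the wild-type mean, and both libraries of each KO lay beyond both wild-type libraries. Because these values made the choice, the KO levels below are a description and carry no test. A time course of differentiation in other libraries, which the choice did not use, was tested.

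The KO libraries came from E14-derived mESCs that carry a short-lived GFP in the Rex1 (Zfp42) gene and Cas9 at the Rosa26 locus, both of which wild-type and KO cells share. GFP+ cells were sorted from wild-type, Nprl2-/- and Tsc2-/- cells, with 2 libraries per genotype, from lines maintained on fibroblast feeders in serum with LIF. Each KO removed a critical exon with a pair of guide RNAs, and the labels do not say whether the 2 libraries of a genotype were separate clones or cultures, so their spread may be technical. The time course held 12 libraries of the same reporter and Cas9 line, 3 before differentiation (day 0) and 3 on each of days 1, 2 and 3; the study differentiated its cells in serum-free medium without LIF or inhibitors, whereas the day 0 culture of these libraries and any sorting before RNA isolation are not given for them in the sources used here. In such bulk libraries, fewer cells of a type and less RNA per cell cannot be told apart.

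mTORC1 is the kinase complex that couples growth to nutrients and growth factors. Nprl2 is a subunit of Gator1, which restrains mTORC1 when amino acids are scarce by acting on the Rag GTPases, and Tsc2 is a subunit of the complex that restrains mTORC1 through the GTPase Rheb. Cultured mESCs move between a naive state, marked by genes such as Zfp42, and a formative state that precedes lineage choice, marked by genes such as Otx2 and Pou3f1; withdrawal of self-renewal factors drives the naive cells through the formative state within days.

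The targeted genes followed their labels. Nprl2 stood at 16.1 and 16.99 TPM in wild-type and 8.09 and 8.65 TPM in Nprl2 KO, and Tsc2 at 44.98 and 44.94 TPM in wild-type and 18.8 and 20.3 TPM in Tsc2 KO. The summed level of 22 naive markers was 3366 and 3401 TPM in wild-type, 2814 to 2942 TPM in Nprl2 KO and 4778 to 4798 TPM in Tsc2 KO, the reverse order of the 131 genes. The lines had been grown on fibroblast feeders, and 10 fibroblast markers summed to 220 to 314 TPM in 5 of the GFP+ libraries and to 68.7 TPM in the second Tsc2 KO library, none of these markers is among the 131, and their part in the KO levels was not tested. Without that library the same rule kept 143 genes, 124 of them shared with the 131. Total counts were 8610357 to 13780861 in the GFP+ libraries and 12503005 to 15305054 in the time course.

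The 131 genes are the smaller part of either KO's differences. Of 10768 genes with a wild-type mean of at least 3 TPM, 5.33% met the Nprl2 side of the rule, 12.4% the Tsc2 side and 1.26%, or 136 genes, both. The 2 KOs were read against the same wild-type libraries, so an unusual wild-type value moves both ratios the same way. The rule leaves out 8 formative markers by name: 5 of them met the rule (Wnt8a, Dnmt3b, Otx2, Pou3f1 and Lefty1) and 3 did not (Dnmt3a, Dnmt3l and Fgf5). For comparison, 235 genes met the opposite rule (lower in Nprl2 KO, higher in Tsc2 KO), 187 were higher in both KOs and 300 lower in both.

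The ratio of the Nprl2 KO mean to the wild-type mean ran from 1.302 to 3.505 over the 131 genes, with a median of 1.55. The ratio of the wild-type mean to the Tsc2 KO mean ran from 1.302 to 13.9, with a median of 1.77. For 90 genes the difference was larger in Tsc2 KO and for 41 larger in Nprl2 KO, on the log2 scale. At least 2-fold was reached by 16 genes in Nprl2 KO, 51 in Tsc2 KO and 11 in both. Most were low: the wild-type mean ran from 3.06 to 472 TPM with a median of 8.13 TPM, 79 genes were under 10 TPM and 8 at 100 TPM or more. Just inside the rule lay Fam185a, Usp44 and Ptk7, whose smaller fold was 1.302, 1.302 and 1.303, and just outside it Aim2, Setd7 and Rap2b, whose smaller fold was 1.299, 1.298 and 1.298.

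**Figure D1:**
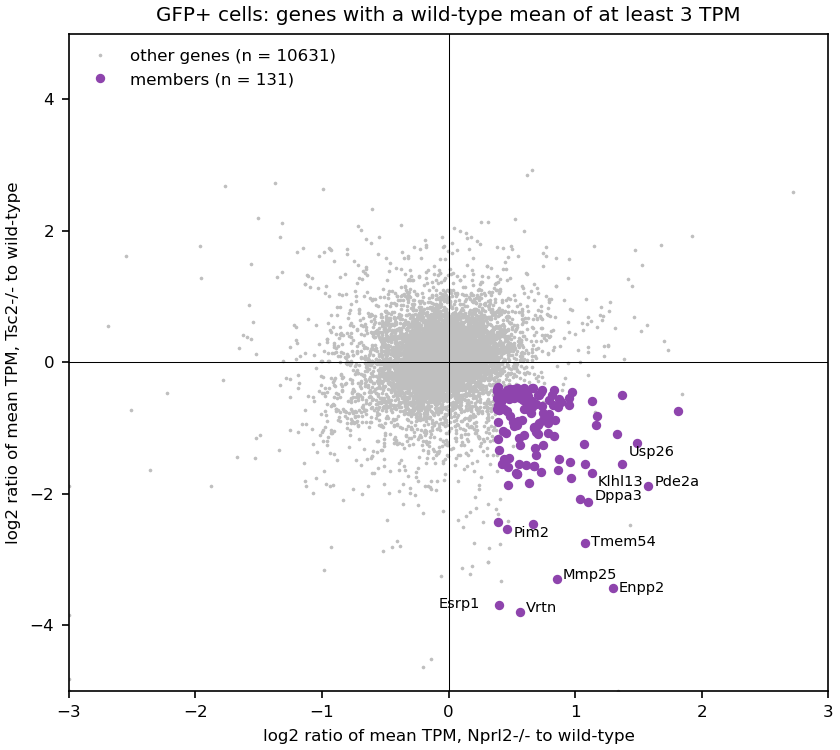
Each point is a gene with a wild-type mean of at least 3 TPM; the x axis is the log2 ratio of the Nprl2-/- to the wild-type mean TPM and the y axis that of Tsc2-/- to wild-type, 2 libraries per genotype, with points beyond an axis drawn at its edge and 6 genes listed at 0 in a KO left out. The 131 chosen genes (purple) fill the lower right by construction, and Vrtn, Esrp1 and Enpp2 reach furthest down.

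Pde2a, which encodes a cyclic nucleotide phosphodiesterase, stood furthest from wild-type in both directions at once. Its level was 6.58 and 5.31 TPM in wild-type, 17.4 and 18.04 TPM in Nprl2 KO and 1.48 and 1.75 TPM in Tsc2 KO. Enpp2 encodes autotaxin, the secreted enzyme that makes lysophosphatidic acid, and had 5.65 and 5.16 TPM in wild-type, 13.1 and 13.4 TPM in Nprl2 KO and 0.35 and 0.646 TPM in Tsc2 KO. Slc40a1, the iron exporter ferroportin, had 5.37 and 5.05, 11.1 and 10.3, and 1.44 and 1.04 TPM in the same order. In all 3 the libraries of a genotype lay close together compared with the distance between genotypes.

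A pair of the strongest genes lay on the X chromosome. Klhl13, an adaptor of a Cul3 ubiquitin ligase, had 161 and 153 TPM in wild-type, 362 and 326 TPM in Nprl2 KO and 48.04 and 49.8 TPM in Tsc2 KO, the highest levels among the 12 genes that were furthest from wild-type in both KOs. Usp26, a deubiquitinase known from testis, had 4.72 and 3.93, 10.9 and 11.4 and 1.42 and 1.54 TPM in that order. In all, 7 of the 131 genes were X-linked, 5.34% against 3.34% of genes with a wild-type mean of at least 3 TPM. Chromosome 1 carried 3 of them, 2.29% against 5.31%, and the median log2 ratio of Tsc2 KO to wild-type over all such chromosome 1 genes was 0.40; the part of that shift in the low number was not tested.

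Dppa3 went against its usual company. It encodes Stella, a maternal and germ cell factor that also marks naive mESCs, and it was the only one of the 22 naive markers among the 131. Its level was 45.4 and 55.8 TPM in wild-type, 91.6 and 126 TPM in Nprl2 KO and 11.1 and 12.2 TPM in Tsc2 KO, while the median log2 ratio over the naive markers was -0.40 against wild-type in Nprl2 KO, and for Tsc2 KO it was 0.50. On day 0 of the time course it stood at only 2.5, 4.21 and 2.8 TPM.

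Some of the remaining genes of the 12 had libraries that lay further apart. Aass, a mitochondrial enzyme of lysine breakdown, had 6.94 and 4.5 TPM in wild-type, 16.3 and 7.93 TPM in Nprl2 KO and 2.44 and 1.49 TPM in Tsc2 KO, so that its lower Nprl2 KO library was nearer to wild-type than to the other. Rbp7, a retinol-binding protein, had 5.35 and 2.49, 10.5 and 9.31 and 2.09 and 1.59 TPM in that order, and its lower wild-type library stood beside the Tsc2 KO libraries. The others were Tmem40, Tmem54, the testis kinase Tssk6 and Ap1m2. In that order their folds were 2.8, 2.11, 2.1 and 1.95 above wild-type in Nprl2 KO. Below wild-type in Tsc2 KO they were 2.34, 6.71, 2.37 and 3.39. Some of their pairs were spread as well. Tssk6 had 1.88 and 0.697 TPM in Tsc2 KO and Tmem40 27.4 and 17.8 TPM in Nprl2 KO. Ap1m2 had 16.1 and 25.3 TPM in wild-type.

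**Figure D2:**
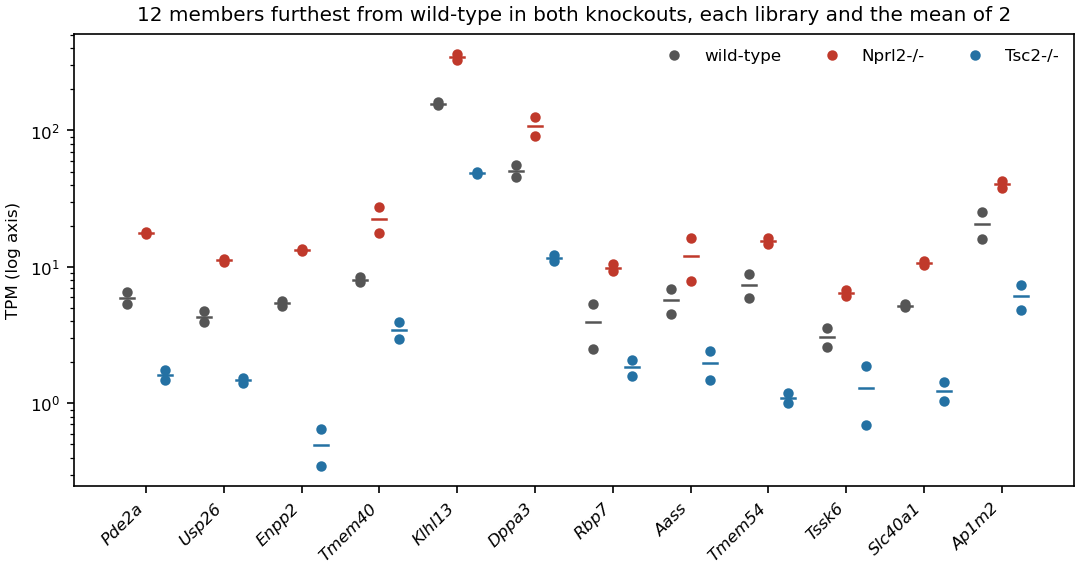
Level in TPM (log axis) of the 12 genes with the largest value of the smaller of their 2 absolute log2 ratios; each dot is a library, 2 per genotype, and each bar their mean. Pde2a, Usp26 and Klhl13 show tight pairs well apart. The Aass pair in Nprl2-/-, the Rbp7 pair in wild-type and the Enpp2 and Tssk6 pairs in Tsc2-/- are spread.

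The genes were next grouped by what their products do, a grouping of 72 genes made after the 131 were known; genes named within the groups that the naming rule does not give were picked after their values were seen. The largest distances in Tsc2 KO fell on genes with diverse roles. Vrtn, a DNA-binding protein known from vertebral patterning, had 12.5 and 7.28 TPM in wild-type, 16.4 and 12.9 TPM in Nprl2 KO and 0.492 and 0.935 TPM in Tsc2 KO. Esrp1, which directs epithelial splicing, had 40.7 and 43.3, 56.4 and 54.5 and 3.45 and 3.04 TPM in that order, and its relative Esrp2 5.43 and 5.86, 6.63 and 8.4 and 3.72 and 4.28 TPM. The paralogs thus shared a direction by the rule but differed in size in Tsc2 KO, by 12.9-fold and 1.41-fold.

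Pim2, a serine/threonine kinase that favours survival and translation and sits in the formative list, was among the most abundant of the 131. It had 174 and 150.4 TPM in wild-type, 215 and 232 TPM in Nprl2 KO and 29.4 and 26.4 TPM in Tsc2 KO. Sall2, a zinc finger factor of the same list, had 9.64 and 6.66, 15.9 and 10.7 and 4.06 and 4.36 TPM in that order. Counted over the 27 formative genes with a wild-type mean of at least 3 TPM, 8 met the Nprl2 side of the rule and 19 the Tsc2 side, and that count includes the left-out markers. In the short lists used here, 11 of 14 Atf4 targets and 7 of 11 p53 targets met the Nprl2 side. The Tsc2 side was met by 1 and 0, and none of those listed is among the 131. Over all genes of that wild-type level, 5.33% met the Nprl2 side and 12.4% the Tsc2 side. The median log2 ratio of Tsc2 KO to wild-type was 0.70 over the Atf4 targets and 0.10 over the p53 targets. Some known targets outside those lists are nevertheless among the 131: Bbc3 and Sfn, which p53 induces, and Slc38a2, which Atf4 induces.

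Interferon-induced and immune genes were a further group of 7. Ifitm1, which encodes a membrane protein that limits virus entry, had 171 and 149 TPM in wild-type, 209 and 221 TPM in Nprl2 KO and 54.6 and 56.1 TPM in Tsc2 KO. Its neighbour in function Ifitm3 had 177 and 128, 223 and 228 and 72.6 and 55.3 TPM in that order. The other 5 (Irgm1, Tap1, Nlrc4, Lgals9 and Spn) were low, with wild-type libraries between 3.16 and 8.69 TPM.

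Promoter windows were read to show what sequence surrounds the starts of genes with opposite courses. RefSeq windows on GRCm38.p6, from 250 bases before to 50 bases after a start, matched 101 of the 131 genes. A gene could be shown only if it was named by rule, had a single window and held a searched motif other than CCAAT. Holding a motif was thus a condition of the choice, and 4 genes were eligible, among them Tssk6, which is not shown. Of these, the windows of Pim2 (chrX:7878056-7878355, plus strand), Usp26 (chrX:51801184-51801483, minus strand) and Ifitm1 (chr7:140967826-140968125, plus strand) are shown. Pim2 and Usp26 rose and Ifitm1 fell when wild-type cells differentiated. Each window is written 5′ to 3′ on the strand of the gene, and capitals mark the matches described after them.
Pim2: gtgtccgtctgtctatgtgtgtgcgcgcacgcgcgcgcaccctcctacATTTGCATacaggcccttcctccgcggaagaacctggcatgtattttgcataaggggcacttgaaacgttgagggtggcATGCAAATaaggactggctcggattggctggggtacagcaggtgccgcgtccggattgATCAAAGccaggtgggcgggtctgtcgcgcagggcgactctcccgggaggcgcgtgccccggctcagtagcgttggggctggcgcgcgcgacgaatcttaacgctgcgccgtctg
Usp26: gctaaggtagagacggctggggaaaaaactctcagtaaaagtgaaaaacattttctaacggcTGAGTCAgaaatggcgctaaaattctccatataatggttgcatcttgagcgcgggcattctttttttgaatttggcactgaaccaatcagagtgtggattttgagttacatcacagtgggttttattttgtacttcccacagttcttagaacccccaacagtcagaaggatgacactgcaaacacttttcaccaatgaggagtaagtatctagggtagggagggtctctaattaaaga
Ifitm1: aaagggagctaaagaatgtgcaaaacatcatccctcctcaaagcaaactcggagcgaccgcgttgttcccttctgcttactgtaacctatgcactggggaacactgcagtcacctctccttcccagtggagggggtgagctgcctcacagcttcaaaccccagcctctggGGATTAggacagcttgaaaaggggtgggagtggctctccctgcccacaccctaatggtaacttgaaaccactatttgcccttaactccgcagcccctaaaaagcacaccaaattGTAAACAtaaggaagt
In the Pim2 window the capitals mark the octamer ATTTGCAT on each strand and the TCF/LEF letters CTTTGAT on the opposite strand; in the Usp26 window they mark the AP-1 letters TGACTCA on the opposite strand; and in the Ifitm1 window the Otx letters TAATCC and the forkhead letters TGTTTAC, both on the opposite strand. Matches to CCAAT, 1 in the Pim2 window and 2 in the Usp26 window, are not in capitals.

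Over the 101 matched genes, the share whose windows held a motif on either strand was set beside that of all promoters. It was 3.96% against 4.29% of 27025 genes for CTTTGAT, 3.96% against 1.97% for ATTTGCAT, 8.91% against 8.14% for TAATCC, 3.96% against 4.05% for TGTTTAC and 6.93% against 5.95% for TGACTCA. No motif contains another, and where matches overlapped each was counted. For CCAAT it was 42.6% against 41.1%, for the cyclic AMP element TGACGTCA 2.97% against 2.03%, and for the E-box CACGTG 5.94% against 8.09%. The ETS letters CCGGAAGT were held by 1 gene, 0.990% against 4.31%, and the Esrrb letters TCAAGGTCA by 0 against 0.466%. Against the 8198 genes with a window and a wild-type mean of at least 3 TPM, the order turned for some motifs. The shares of those genes were 2.93% for CTTTGAT, 1.57% for ATTTGCAT, 6.61% for TAATCC, 2.99% for TGTTTAC, 4.01% for TGACTCA, 43.9% for CCAAT, 3.94% for TGACGTCA, 12.6% for CACGTG, 10.2% for CCGGAAGT and 0.329% for TCAAGGTCA, so that TGACGTCA and CCAAT were less frequent in the chosen genes than here and CTTTGAT and TGTTTAC more frequent, the reverse of their order against all promoters. In those genes the median window held 21 CG pairs against 11 in the 140 windows of the chosen genes. These shares describe letters in short windows and carry no test.

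The time course asked how the 131 genes behaved when wild-type cells left the naive state. Counts could be tested for 125 of them: Tmem40, Usp44 and Lgals6 were left out because their transcripts could not be summed to the deposited gene level, and Gm4301, Gm4312 and Tdpoz3 because their counts were too low. Each later day was compared with day 0 in one edgeR quasi-likelihood fit of all 12 libraries, with Benjamini-Hochberg adjustment over 14333 genes, and a gene was called at an adjusted p under 0.05. Changes below are log2 fold changes with their standard error.

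On day 1, 78 of the 125 genes were higher and 18 lower than on day 0, where 30.1% of all genes tested were higher and 30.8% lower. On day 2, 87 were higher and 24 lower, against 34.2% and 32.4% of all genes. On day 3, 82 were higher and 30 lower, against 35.0% and 36.0%. The share of the 125 genes that rose was thus 62.4%, 69.6% and 65.6%, about 2-fold the background on each day, and the share that fell 14.4%, 19.2% and 24%. Their median change was 0.89, 1.18 and 1.05, where the median of all genes tested was 0.00, 0.01 and -0.01.

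Between day 1 and day 3 rises and falls were nearly equal in number. On day 3, 56 were higher and 48 lower than on day 1, against 36.3% and 35.0% of all genes tested, with a median change of 0.15. The genes of the opposite rule, which were lower in Nprl2 KO and higher in Tsc2 KO, ran the other way: of 234 tested, 18 rose and 191 fell by day 1, with a median change of -1.09, and 32 rose and 167 fell by day 3.

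**Figure D3:**
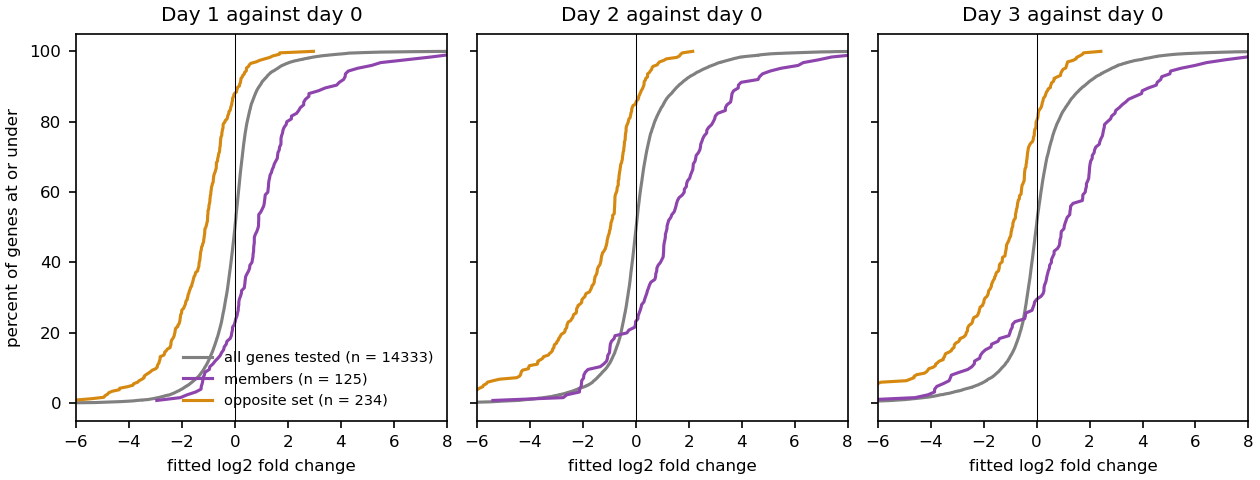
Percent of genes (y axis) with a log2 fold change against day 0 at or under the value on the x axis, for days 1, 2 and 3, for all 14333 genes tested (grey), the 125 chosen genes tested (purple) and the 234 genes of the opposite rule tested (orange); 3 libraries a day, and changes under -6 or over 8 lie outside the axis. On each day the purple curve lies to the right of the grey and the orange curve to its left at the median, and the lower tail of the purple curve crosses the grey by day 3.

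The genes followed 4 main courses. Higher on both day 1 and day 3 were 58 genes, 46.4% of the 125 against 16.1% of all genes tested. Another 20 were higher on day 1 and then lower on day 3 than on day 1, without being higher than day 0 (16.0% against 12.9%), and 24 were not higher on day 1 but higher on day 3 (19.2% against 18.9%). Lower on day 3 without a rise on day 1 were 16 genes, 12.8% against 29.8%. Of the remaining 7, Fst and Gm4302 were not called on any day against day 0, and Esrp2, Lefty2, Plk5, Ppm1n and Trh followed other courses. The highest mean fell on day 0 for 12, on day 1 for 34, on day 2 for 39 and on day 3 for 46 of the 131 genes. Those counts include the genes that were not tested. The same shares over all genes were not computed, so the counts have no background to be read against.

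**Figure D4:**
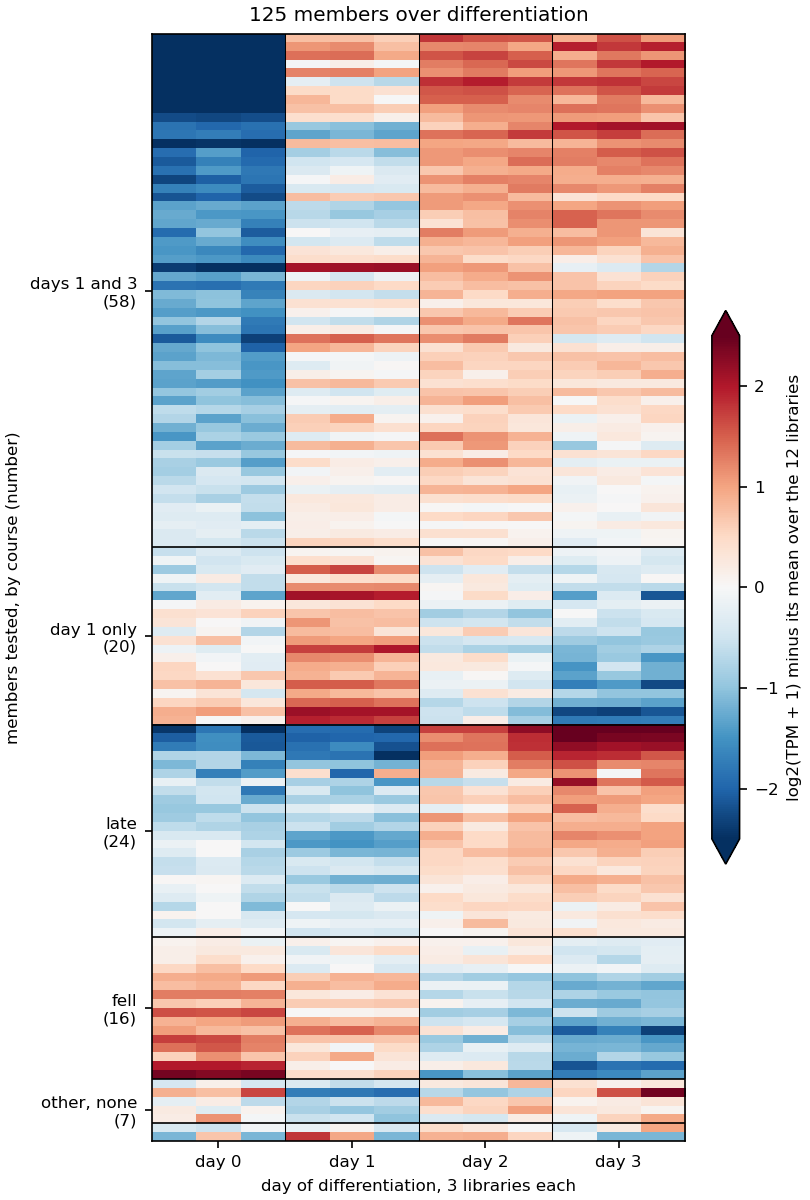
Rows are the 125 genes tested, grouped by course and sorted by their day 3 change, and columns the 12 time-course libraries, 3 a day; colour is log2(TPM + 1) minus the gene's mean over the 12 libraries, with values beyond 2.5 shown as 2.5. The upper block of 58 genes is low on day 0 in all 3 libraries, the next of 20 peaks on day 1, the next of 24 is high on days 2 and 3, and the next of 16 falls.

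Among the early and lasting genes, Pim2 rose from 26.99, 30.1 and 25.6 TPM on day 0 to 464, 463 and 429 TPM on day 1 and 848, 979.9 and 1114 TPM on day 3. No day 0 library came near a later one, and the day 1 change was 4.10 ± 0.09 (edgeR adjusted p = 2.13e-16). Sall2 rose from 4.74, 5.58 and 3.06 TPM to 60.97, 59.3 and 60.2 TPM on day 1 and then stayed near that level, with 63.7, 76.7 and 79.9 TPM on day 3. Its day 1 change was 3.84 ± 0.15 (edgeR adjusted p = 1.4e-10). Vrtn had the same shape, with 0.713, 0.452 and 0.338 TPM on day 0, 42.6, 43.3 and 35.8 TPM on day 1 and a change of 6.46 ± 0.19 (edgeR adjusted p = 1.13e-14).

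Some of the largest rises started from almost no reads, so their size rests on a few counts. Enpp2 had 10 counts in the 3 day 0 libraries together and 3080 on day 1, a ratio of 293 with a 95% exact counting interval of 159 to 611. Car4, a membrane-anchored carbonic anhydrase, had 6 and 1057 counts, a ratio of 167 with an interval of 76.6 to 457. Tmem54 had no count on day 0 and 381 on day 1, so it was at least 40.2-fold higher against a floor of 3 counts per library. These intervals cover counting error alone. Mmp25, a membrane-bound metalloproteinase, went from 0.21, 0.23 and 0.276 TPM to 9.93, 11.3 and 9.7 TPM on day 1 and 27.1, 36.95 and 42.8 TPM on day 3, with a day 3 change of 7.13 ± 0.24 (edgeR adjusted p = 1.91e-13). Setting Tmem54 to its bound left the medians given above unchanged.

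Most genes grouped as secreted or cell-surface proteins rose, a group that holds enzymes such as Enpp2 and Mmp25 besides signals. Of 12 tested, 9 were higher and 2 lower on day 1, and 9 higher and 0 lower on day 3, with a median change of 2.68 on day 1. Of all 125 genes, 62.4% were higher on day 1 and 65.6% on day 3, with a median change of 0.89 on day 1. Cxcl12, a chemokine, had 1.02, 1.29 and 0.324 TPM on day 0, 12.7, 10.2 and 8.86 TPM on day 1 and 55.7, 60.7 and 52.5 TPM on day 2, and changed by 6.13 ± 0.19 by day 2 (edgeR adjusted p = 7.21e-14). Rspo1, which strengthens Wnt signalling, rose by 1.96 ± 0.22 by day 1 and 3.36 ± 0.19 by day 3. Dll1, a Notch ligand, was instead highest early. It had 1.07, 1.97 and 0.758 TPM on day 0 and 21.8, 23.9 and 21.5 TPM on day 1. On day 3 it had 5.5, 6.05 and 5.26 TPM. Dll1 was the only chosen gene in a list of 12 Notch pathway genes. Of the 9 with a wild-type mean of at least 3 TPM, 7 met the Tsc2 side of the rule and 1 the Nprl2 side. The shares of all such genes were 12.4% and 5.33%. The summed level of the 10 fibroblast markers was also higher later, from 16.5 to 32.3 TPM on day 0 and 31.3 to 33.8 TPM on day 1 to 255 to 460 TPM on day 3. The sum mixes directions: of 9 such markers tested, 6 were higher and 3 lower on day 3. Col1a1 had 6.59, 3.02 and 2.98 TPM on day 0 and 1.25, 1.03 and 1.24 TPM on day 3. Thy1 instead rose from 4.51, 5.57 and 3.06 TPM to 33.3, 30.2 and 26.8 TPM. The part of these markers in the later rises was not tested.

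The 2 Nodal and activin antagonists of this group did not follow it. Lefty2, an inhibitor of Nodal, had 14.7, 29.03 and 12.4 TPM on day 0 and 8.4, 8.82 and 5.92 TPM on day 1, a change of -1.21 ± 0.41 (edgeR adjusted p = 0.0285), and on day 3 its change from day 0 was -0.10 ± 0.37 (edgeR adjusted p = 0.834). The day 0 libraries were spread and the second lay well above the others. The day 1 call was lost without that library, where the change was -0.73 (edgeR adjusted p = 0.0915), and without any one of the day 1 libraries. Fst, the activin antagonist follistatin, had changes of 0.25 ± 0.35, 0.57 ± 0.34 and 0.66 ± 0.34 on the 3 days, none called. Trh, a neuropeptide precursor, fell by day 1 from 135, 123 and 233 TPM to 21.2, 20.3 and 18.7 TPM and stood at 106, 219 and 388 TPM on day 3, where its libraries differed widely and the change from day 0 was 0.44 ± 0.42 (edgeR adjusted p = 0.372).

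The epithelial genes, a group made after the choice, split in time. On day 1, 4 of 11 were higher and 4 lower, and on day 3, 8 were higher and 2 lower. Their median change was -0.43 and then 1.99. A separate list of 17 epithelial and mesenchymal genes held 0 of the chosen genes. Of its 14 genes with a wild-type mean of at least 3 TPM, 2 met the Nprl2 side of the rule, against 5.33% of all such genes. The Tsc2 side was met by 5, against 12.4%. Esrp1 and Podxl, the apical sialomucin podocalyxin, rose at once: Esrp1 from 3.25, 3.46 and 2.07 TPM to 55.7, 56.6 and 51.2 TPM and Podxl from 8.39, 7.38 and 5.61 TPM to 31.5, 30.1 and 27.4 TPM. Ap1m2, a subunit of an epithelial clathrin adaptor, fell first and rose later, from 9.9, 9.94 and 7.35 TPM on day 0 to 4.31, 4.07 and 2.24 TPM on day 1 and 66.97, 64.4 and 52.5 TPM on day 3. Its changes were -1.27 ± 0.27 on day 1 (edgeR adjusted p = 0.00106) and 2.67 ± 0.19 on day 3 (edgeR adjusted p = 2.47e-08). The tight-junction gene Cldn7 was not called on day 1 and rose by 5.46 ± 0.31 by day 3 (edgeR adjusted p = 6.34e-08). Krt42, a keratin, fell on every day, from 16.4, 15.4 and 16.1 TPM on day 0 to 3.53, 3.42 and 3.96 TPM on day 1 and 11 and 4 counts in all on days 2 and 3.

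Among the genes that rose late, Nes, the neural progenitor filament nestin, had 3.11, 4.92 and 2.98 TPM on day 0 and 3.2, 3.33 and 3.43 TPM on day 1, and then 37.2, 42.1 and 60.6 TPM on day 2 and 105, 87.2 and 86.2 TPM on day 3. Its day 1 change was -0.09 ± 0.28 (edgeR adjusted p = 0.793) and its day 3 change 4.56 ± 0.23 (edgeR adjusted p = 3.83e-08). Nes was the only chosen gene in a list of 14 early neural genes. Of the 7 with a wild-type mean of at least 3 TPM, 3 met the Tsc2 side of the rule and 1 the Nprl2 side. The shares of all such genes were 12.4% and 5.33%. Palm, a membrane-associated paralemmin, changed by -1.28 ± 0.12 on day 1 and was 1.12 ± 0.10 above day 0 on day 3. Snrpn, an imprinted splicing gene, was uneven between libraries of one day, with 133, 24.4 and 188 TPM on day 1, and was called higher on day 3 at 2.10 ± 0.68 (edgeR adjusted p = 0.0224). That call was lost without replicate 2 or 3 of day 0 or replicate 1 or 3 of day 3, where the change was 1.87 to 2.04 (edgeR adjusted p = 0.0569 to 0.0742).

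The day 1 peak was the course of 4 of the 7 immune genes. Of the 7, 5 were higher on day 1 and 5 lower on day 3 than on day 0, against 62.4% and 24% of the 125. Irgm1, an interferon-induced GTPase, had 2.12, 3.48 and 3.8 TPM on day 0, 15.6, 17.7 and 12.2 TPM on day 1 and 2.57, 3.39 and 3.65 TPM on day 3, and Nlrc4, an inflammasome sensor, 1.68, 1.35 and 1.89, 8.54, 8.82 and 10.8 and 0.312, 0.595 and 0.71 TPM. Lgals9 and Spn had the same shape. Ifitm1 and Ifitm3 instead fell at once: Ifitm1 from 237, 236 and 225 TPM on day 0 to 65.2, 59.6 and 66.8 TPM on day 1 and 12.4, 15.6 and 14.8 TPM on day 3, with a day 3 change of -4.10 ± 0.20 (edgeR adjusted p = 1.09e-10), and Ifitm3 with one of -2.44 ± 0.09. Tap1, the peptide transporter of antigen presentation, was the member of this group that was called higher on all 3 days. Its day 1 change was 0.73 ± 0.27 (edgeR adjusted p = 0.0265), and that call was lost without replicate 3 of day 0 or replicate 1 or 2 of day 1, where the change was 0.39 to 0.73 (edgeR adjusted p = 0.0601 to 0.0943).

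Other genes with a day 1 peak had diverse roles. Tdrd12 and Nlrp9b were grouped as germline genes, and Aass and Slc38a2 as transporters and enzymes. The protein-coding gene 4930548H24Rik had 22.5, 25.02 and 20.1 TPM on day 0, 54.8, 52.4 and 52.7 TPM on day 1 and 1.61, 1.5 and 1.85 TPM on day 3. Ms4a10 had 6.08, 2.86 and 3.2, 13.9, 13.1 and 11.7 and 0.146, 0.155 and 0.168 TPM on those days, and Slc38a2, an amino acid transporter, 129, 138 and 125, 438, 434 and 441 and 124, 125 and 119.6 TPM. In each of the 3 all day 1 libraries lay above all others of days 0 and 3.

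All 5 germline genes tested were lower on day 3 than on day 1, against 38.4% of the 125 genes. That call was lost for Tssk6 without replicate 3 of day 1 (-0.74, edgeR adjusted p = 0.0534). Against day 0, 3 were higher on day 1 (Usp26, Tdrd12 and Nlrp9b) and 0 lower, and on day 3, Usp26 was higher, Tdrd12, Dppa3 and Tssk6 were lower and Nlrp9b was not called. Tdrd12, a factor of the piRNA pathway, had 52.9, 57.2 and 38.3 TPM on day 0, 92.2, 91.3 and 80.2 TPM on day 1 and 8.88, 11.1 and 5.8 TPM on day 3. Usp26 had 1.47, 0.739 and 0.87, 6.68, 7.13 and 6.19 and 1.3, 3.34 and 2.55 TPM, and was still above day 0 on day 3 by 1.15 ± 0.35 (edgeR adjusted p = 0.00912), a call lost without the second day 0 library, at 0.95 (edgeR adjusted p = 0.0507). Dppa3 was near its day 0 level on day 1, with 2.52, 3.56 and 1.96 TPM, and fell to 3 counts in all on day 3 from 47 on day 0, a ratio of 0.0631 with a 95% exact counting interval of 0.0126 to 0.196. Tssk6 changed by 0.03 ± 0.27 by day 1 (edgeR adjusted p = 0.924) and fell by day 3.

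Among the genes that fell, Klhl13 was called lower only from day 2. It had 77.6, 82.7 and 65.3 TPM on day 0, 83.8, 77.7 and 86.9 TPM on day 1, 40.8, 40.1 and 27.2 TPM on day 2 and 18.1, 19.3 and 17.6 TPM on day 3, a day 3 change of -2.12 ± 0.15 (edgeR adjusted p = 4.93e-08). Sox15, a Sox factor of mESCs, fell from 37.5, 35.6 and 27.5 TPM on day 0 to 18.1, 18.3 and 17.5 TPM on day 1 and 3.86, 3.96 and 3.25 TPM on day 3. Acap1, a GTPase-activating protein of Arf6, changed by -1.21 ± 0.16, -2.12 ± 0.18 and -3.31 ± 0.20 on the 3 days.

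**Figure D5:**
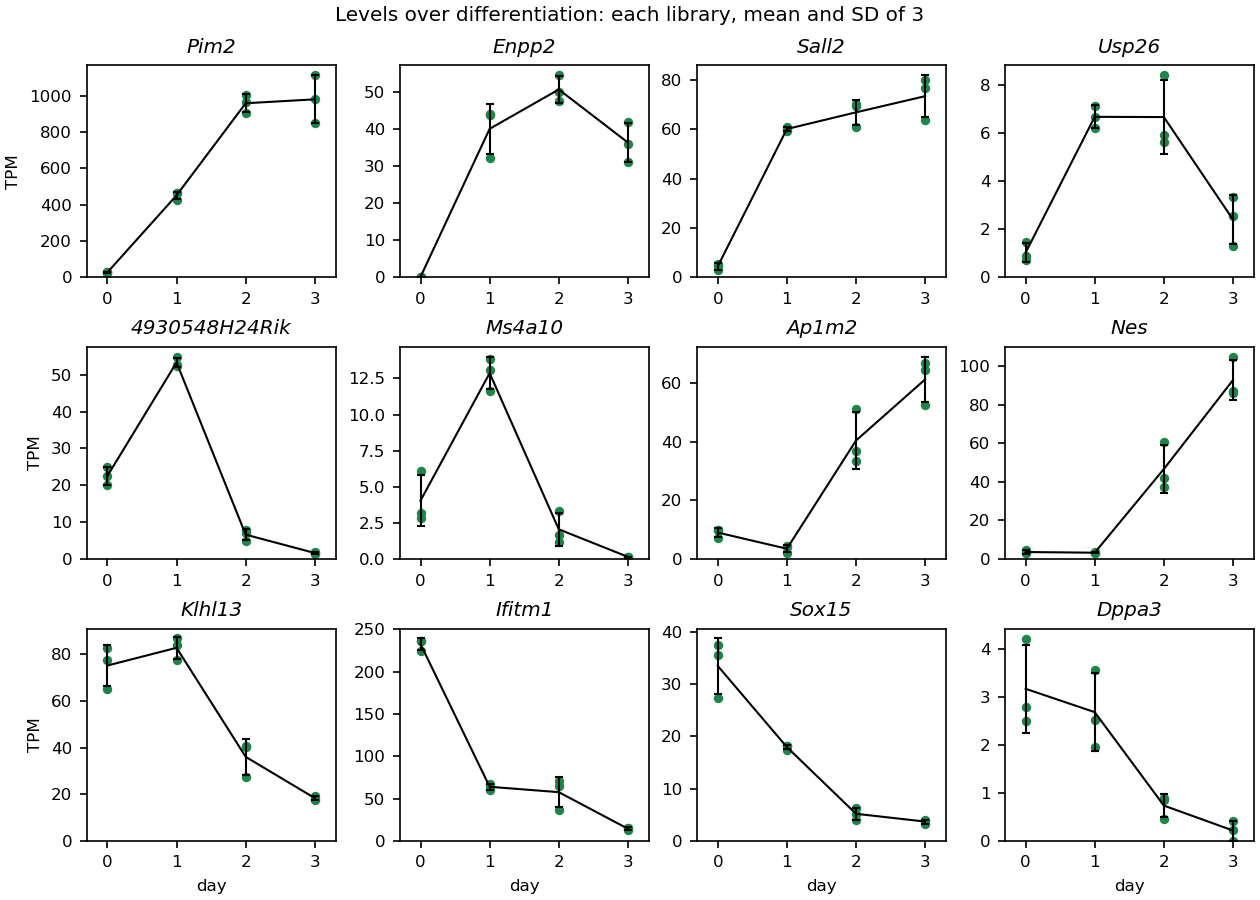
Level in TPM (linear axis from 0) on days 0 to 3 of 12 of the genes; dots are the 3 libraries of a day, and the line and bars their mean and SD. The first row rises by day 1, 4930548H24Rik and Ms4a10 peak on day 1, Ap1m2 and Nes rise from day 2, and the last row is lower on day 3 than on day 0.

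Transporters and enzymes rose for the most part. Of 16, 11 were higher and 2 lower on day 1, and 13 higher and 2 lower on day 3. Most of the 125 genes did the same, with 62.4% higher on day 1 and 65.6% on day 3. Slc40a1 went from 0.453, 0.402 and 0.473 TPM on day 0 to 8.09, 8.14 and 6.47 TPM on day 1 and 13.3, 13.1 and 10.004 TPM on day 3, with a day 1 change of 4.16 ± 0.22 (edgeR adjusted p = 7.09e-12). The amino acid transporters Slc43a1 and Slc43a2 rose by 1.88 ± 0.12 and 1.29 ± 0.09 by day 3. Rbp7 was highest on day 2, with 18.6, 15.5 and 12.8 TPM against 1.74, 3.37 and 2.98 TPM on day 0, and Aass rose by 1.12 ± 0.19 on day 1 and was below day 0 on day 3. Gpx2, a glutathione peroxidase, was 36.6 ± 4.2 TPM (SD, n = 3) on day 0 and 4.12 ± 1.17 TPM on day 3.

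Signalling genes and transcription factors mostly rose as well. Of 14 signalling genes, 8 were higher and 1 lower on day 1, and 11 higher and 2 lower on day 3. The share higher over all 125 genes was 62.4% on day 1 and 65.6% on day 3. Pde2a went from 1.29, 1.22 and 0.968 TPM on day 0 to 7.12, 7.004 and 7.15 TPM on day 1, where the 3 libraries agreed closely, and 5.67, 6.75 and 8.72 TPM on day 3. Gadd45g, a stress-response gene, peaked on day 1 at 119, 123 and 126 TPM from 4.5, 3.37 and 2.9 TPM on day 0, a change of 5.16 ± 0.17 (edgeR adjusted p = 1.13e-14). Of the planar polarity genes, Prickle1 rose by 1.25 ± 0.19 by day 1 and 4.52 ± 0.15 by day 3, and Ptk7 by 0.98 ± 0.07 and 0.56 ± 0.07. Of 6 transcription factors, 5 were higher on days 1, 2 and 3 and Sox15 was lower; Neurod1, a neurogenic factor, went from 3.76, 3.38 and 2.2 TPM on day 0 to 14.9, 17.5 and 13.8 TPM on day 2.

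The 54 genes tested that fell outside these groups included 33 higher and 6 lower on day 1 and 34 higher and 15 lower on day 3. Over all 125 genes, 62.4% and 14.4% were higher and lower on day 1, and 65.6% and 24% on day 3. Of the genes that could not be tested, Usp44, a deubiquitinase, had 15.6, 14.8 and 11.3 TPM on day 0 and 51.4, 56.6 and 47.03 TPM on day 2, and Tmem40 6.78, 7.08 and 6.24 TPM on day 0, 14.3, 10.4 and 12.2 TPM on day 1 and 0.345, 0.605 and 0.262 TPM on day 3. Gm4301 and Gm4312 had identical values in every library, as near-identical copies do, and count once as evidence. The level of the pseudogenes Gm10052 and Gm5779 is likewise uncertain, since reads could be shared with their parent genes.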

How the data were processed

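The authors quantified transcripts with kallisto (0.42.1; mm10, per the submitters' processing notes) and deposited estimated counts and TPM per transcript for each library and one TPM table per gene. GFP+ libraries were stranded mRNA, paired-end 75 bp; the kit of the time course is not given in the sources used here. Deposited DESeq2 tables hold the authors' own comparisons (fold changes and p-values) and were not used.

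The gene TPM table chose the genes. Estimated counts were summed per gene and rounded to whole numbers, with 33585 of 34079 transcripts mapped through a RefSeq table and 187 through GENCODE. The time course was fitted with edgeR 4.0.16 (R 4.3.3; TMM, filterByExpr, glmQLFit and glmQLFTest, no covariate). In simulated data 67, 67 and 66 of 14333 genes were changed 1.5-, 2- and 4-fold on day 1. The fit recovered 62.7%, 80.6% and 95.5% of them, and 5.92% of its calls fell on unchanged genes. In the measured data 30.1% of genes were called higher and 30.8% lower on day 1, so the simulation does not cover so broad a change. Total counts of 8610357 to 15305054 put 3 counts at 0.196 to 0.348 CPM; intervals and floors cover counting error only. Replicate libraries carry no stated pairing. Alternatives were DESeq2 1.42.0, limma 3.58.1 on log2(TPM + 1), upper-quartile scaling, no filter, the replicate number as a block, other membership rules, and leaving out each library in turn.

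The genes, the gene lists and the tests were chosen with earlier results of these data known. Genes were named by rule: the 12 furthest from wild-type in both KOs, the 5 largest rises and falls on each day, members of 21 gene lists, and those at the threshold.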

Additional observations from a re-analysis of the deposited data

How the results depend on the processing

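The number of genes met by the rule was 208 with a fold of 1.2, 56 with a fold of 1.5 and 52 with a wild-type mean of at least 10 TPM, and ran from 127 to 161 when each GFP+ library was left out. CPM from the estimated counts gave 166, of which 120 were among the 131. There the wild-type minimum was 3 CPM, which is not corrected for transcript length, so it admits other genes than 3 TPM does. Leaving out the first or the second wild-type library lost 29 and 31 of the 131. Of the 56 genes with a fold of 1.5, 53 were tested: 34 were higher and 7 lower on day 1, 34 and 11 on day 2, 31 and 14 on day 3, and 24 and 21 on day 3 against day 1, the smaller counts following from fewer genes. Leaving out each time-course library gave 74 to 82 higher and 15 to 20 lower on day 1, 83 to 88 and 23 to 24 on day 2, 75 to 83 and 29 to 31 on day 3, and 53 to 57 and 45 to 51 on day 3 against day 1.

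No called change of a single gene turned direction under any alternative run; 145 of 7189 recomputed values lost their call, 12 of them for Gm16522 and 11 each for Galnt7, Cd109 and Trp73 over the 4 comparisons of days. Among genes named above they were 9 for Lefty2, 9 for Gm5779, 8 for Snrpn, 4 for Fam185a, 3 each for Tap1 and Ms4a10, and 1 each for Usp26 and Tssk6. Of 1304 recomputed KO ratios 8 moved by more than the spread of libraries, all under CPM. That spread came from the same 2 libraries per genotype, so leaving 1 of them out could hardly exceed it. The ratios without 1 library therefore say little about stability. Samples of one replicate number did not deviate together (18 pairs, correlation from -0.11 to 0.13, 2 over 0.1). This shows no shared deviation but cannot decide whether the numbers pair the libraries. With the replicate block 80 genes were higher and 16 lower on day 1, and 3 called changes were lost. Depth limits the genes that start or end near 3 counts per library, where only a bound or a wide interval can be given.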
